A study of Mus musculus with 4 samples.

Results

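The genes described here are 10 secreted signals of vascular inflammation, taken from the count table by symbol: *Ccl2*, *Ccl7*, *Ccl5*, *Cxcl1*, *Cxcl5*, *Cxcl10*, *Cxcl12*, *Cxcl16*, *Cx3cl1* and *Csf1*. All 10 were found among its 48587 genes, and all 10 passed the filter on low counts that left 18916 genes for testing. The cells were primary vascular smooth muscle cells (VSMCs), cultured from descending aortas of C57BL/6J mice aged between 8 and 12 weeks and used at passage 5 to 7. The isolation protocol digested the aortas to strip the adventitia and scraped off the endothelium before culture, yet endothelial markers were counted in every library, as given below. They carried a lentivirus with either the control hairpin (shCTR), directed at a plant microRNA sequence, or a hairpin against *Mettl14* (shMettl14), a subunit of the enzyme that writes N6-methyladenosine (m6A) on mRNA. By the study's transduction protocol the cells spent 24 hours with virus and 48 hours in fresh medium, and the labels name no further treatment. Each group had 2 libraries of poly-A RNA, which carry the letters A and B, and whether a letter stands for one culture or animal is not given in the sources used here. The comparison asks how the levels of these signals differed between cells with less *Mettl14* and control cells.

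Chemokines are small secreted proteins that draw leukocytes along a gradient through receptors coupled to G proteins, and their families are named after the spacing of the first cysteines (CC, CXC, CX3C). In an injured artery, VSMCs and endothelial cells release them, so that monocytes, neutrophils and T cells enter the wall. Most are switched on by NF-kB or interferon signalling and their mRNAs are short lived, whereas CXCL12 is made without induction, and CSF1 is not a chemokine but the growth factor on which macrophages depend.

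*Mettl14* itself had 2050 and 2154 counts in shCTR A and B and 546 and 568 counts in shMettl14 A and B, so the hairpin target was at 23.6% of its shCTR level. Totals lay between 114343653 and 124815868 counts per library, and a count of 0 allows up to 3 counts, at most 0.0278 CPM. CPM are parts-per-million counts, that is counts over the library total after TMM scaling in edgeR. The smooth muscle markers *Acta2*, *Tagln*, *Myh11*, *Cnn1*, *Smtn*, *Lmod1* and *Myocd* summed to between 4442 and 6797 CPM, and *Acta2*, the most abundant on average over the libraries, had 3547 and 2799 CPM in shCTR A and B and 2171 and 2073 CPM in shMettl14 A and B (log2 fold change −0.58 ± 0.21 SE, edgeR, unadjusted p = 0.038, adjusted p = 1.0). The 8 endothelial markers were also above 5 CPM in every library, with a sum of 1919 and 4067 CPM in shCTR A and B and of 1811 and 2522 CPM in shMettl14 A and B. The 11 macrophage and leukocyte markers summed to between 12.5 and 17.9 CPM, and *Adgre1*, *Itgam*, *C1qa*, *C1qb* and *Cd3e* each had at most 15 counts in any library and 0 in shCTR B. Other genes of that list were present in every library, among them *Lyz2* with 493 to 640 counts, *Cd68* with 420 to 521, *Csf1r* with 194 to 467 and *Cd14* with 146 to 342. The 6 adventitial fibroblast markers summed to between 322 and 412 CPM, most of it from *Ly6a* with 195 to 282 CPM. *Dcn* had 68.3 to 160 CPM and *Pdgfra* 7.93 to 14.5 CPM, whereas *Lum*, *Pi16* and *Dpt* were each below 1 CPM in every library. Fewer cells of a type and less RNA per cell cannot be told apart in such bulk libraries, and the part of endothelial and adventitial cells in the levels below was not tested.

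The 10 genes fell into 3 tiers of abundance when CPM were divided by the length of exon in kilobases, with the exons of all transcripts of a gene merged. *Cxcl12*, which holds and recruits cells through CXCR4, was the highest with 345 CPM per kilobase on average over the 4 libraries, above 99.5% of tested genes. *Csf1* followed with 260 CPM per kilobase, and their ranges over the libraries overlapped. *Ccl2*, the main attractant of monocytes through CCR2, had 108 CPM per kilobase, with a range of 72.4 to 140 CPM per kilobase that lay below that of *Csf1*. The middle tier held *Cx3cl1*, *Cxcl16*, *Ccl7* and *Cxcl1*, at 10.4, 9.21, 7.61 and 6.12 CPM per kilobase, and neighbours in this order had overlapping ranges. *Ccl2* was 10.4 times as abundant per length as *Cx3cl1*, the next gene down. *Cxcl10*, *Ccl5* and *Cxcl5* formed the lowest tier, with 0.460, 0.277 and 0.0632 CPM per kilobase. The lowest library of any gene in one tier was above the highest library of any gene in the next. For *Cxcl12* the merged exons held 8176 bases, against 3132 in the single transcript searched below. For *Csf1* these lengths were 5281 and 4176 bases, and for *Cxcl1* 1875 and 953. The order within a tier and the overlap of *Cxcl12* with *Csf1* hold for merged exons and depend on the length chosen.

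**Figure D1:**
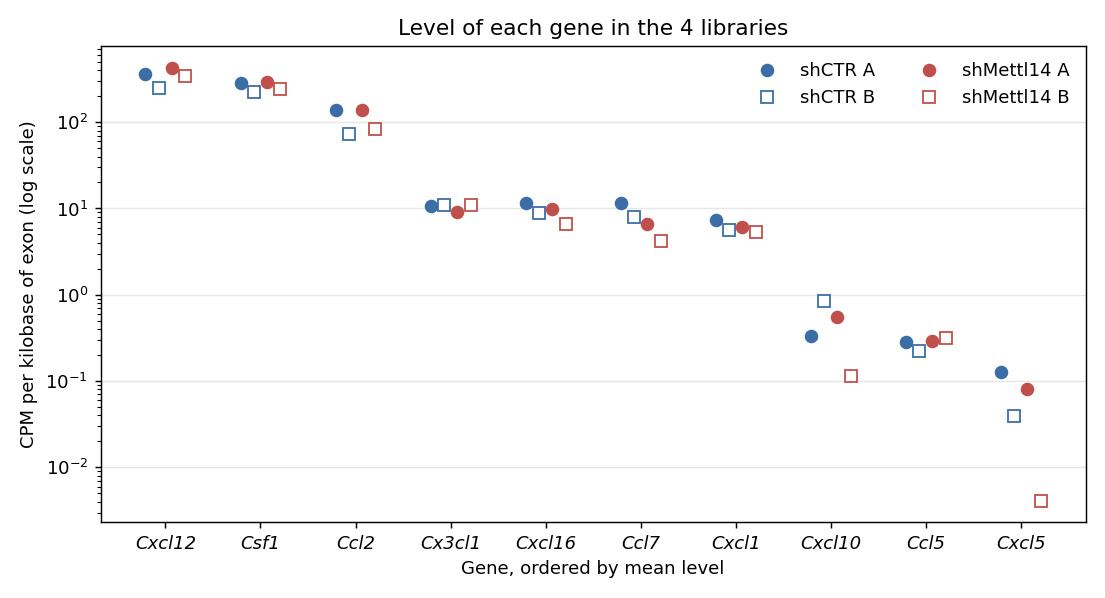
Level of each gene in each library as CPM per kilobase of exon on a log axis, with genes ordered by their mean, blue for shCTR, red for shMettl14, filled circles for letter A and open squares for letter B. The values run from 429 CPM per kilobase for *Cxcl12* in shMettl14 A to 0.00413 for *Cxcl5* in shMettl14 B, and the 3 tiers are separate in all libraries.

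The promoters of 4 genes are shown because they come from each of these tiers. *Cxcl1*, a textbook target of NF-kB, was in the middle tier, *Cxcl10*, a textbook target of interferon and NF-kB, in the lowest, and *Csf1* and *Cxcl12* were the most abundant. Each sequence is the 250 bases before the RefSeq start of the gene on GRCm38.p6, written in the direction of transcription. Capitals mark matches on either strand to 3 motifs, the NF-kB consensus, the AP-1 motif TGANTCA, and a pair of GAAA words 2 bases apart as in interferon response elements.
Cxcl1, plus strand of chr5:90890995-90891244: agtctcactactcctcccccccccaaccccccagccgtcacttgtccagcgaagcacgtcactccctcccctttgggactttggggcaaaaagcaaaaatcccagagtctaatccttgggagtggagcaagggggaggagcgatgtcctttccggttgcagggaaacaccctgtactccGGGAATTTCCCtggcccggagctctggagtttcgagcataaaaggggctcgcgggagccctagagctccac
Cxcl10, minus strand of chr5:92348890-92349139: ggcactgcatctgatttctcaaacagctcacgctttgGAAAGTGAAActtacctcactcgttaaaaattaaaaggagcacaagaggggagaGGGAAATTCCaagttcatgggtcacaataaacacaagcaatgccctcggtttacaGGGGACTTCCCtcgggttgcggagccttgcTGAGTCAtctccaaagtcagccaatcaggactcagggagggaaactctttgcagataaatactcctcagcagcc
Csf1, minus strand of chr3:107760470-107760719: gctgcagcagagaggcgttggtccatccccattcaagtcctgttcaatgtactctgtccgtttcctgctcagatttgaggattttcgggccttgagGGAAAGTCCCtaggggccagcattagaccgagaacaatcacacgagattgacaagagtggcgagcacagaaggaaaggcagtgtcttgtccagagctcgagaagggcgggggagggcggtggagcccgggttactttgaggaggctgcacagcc
Cxcl12, plus strand of chr6:117168285-117168534: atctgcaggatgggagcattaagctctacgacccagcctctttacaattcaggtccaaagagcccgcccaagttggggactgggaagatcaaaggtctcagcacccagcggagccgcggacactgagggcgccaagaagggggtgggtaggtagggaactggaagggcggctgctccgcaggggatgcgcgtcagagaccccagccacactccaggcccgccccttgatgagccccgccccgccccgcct

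The *Cxcl1* window held 2 overlapping NF-kB matches that begin at positions −71 and −70 from the start. The *Cxcl10* window held NF-kB matches at positions −159, −104 and −103, the last pair overlapping, an AP-1 match at −74 and a GAAA pair at −213. The *Csf1* window held 1 NF-kB match, at position −154, and neither the *Cxcl12* nor the *Cx3cl1* window held any of the 3 motifs. Of 32851 promoter windows of the same length, 7.25% held the NF-kB motif, 6.75% the AP-1 motif and 2.98% the GAAA pair. RefSeq windows were available here for 5 of the 10 genes, and not for *Ccl2*, *Ccl7*, *Ccl5*, *Cxcl5* and *Cxcl16*. A match is a run of letters and does not show that a factor bound there.

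The mRNAs were also searched for ATTTA, the core of the AU-rich elements that mark short-lived cytokine mRNAs, and for GGACT, a common form of the m6A sequence context, on the transcript strand. ATTTA stood in the 3′ untranslated region of 9 of the 10 genes, and of 65.6% of 14385 coding genes tested. *Cxcl1* had the most, with 7 copies in 592 bases, followed by *Cxcl5* with 5 copies in 1111 bases and *Csf1* with 4 in 2111 bases. *Ccl5* had 0 copies in 199 bases. GGACT stood in every one of the 10 transcripts, and in 91.8% of the coding genes tested. *Cx3cl1* had 9 copies, 7 of them in the 3′ untranslated region, *Csf1* had 6, and *Ccl2*, *Ccl7*, *Ccl5*, *Cxcl5* and *Cxcl10* had 1 each. The genes with the most copies were also among the longest transcripts, and per kilobase the 10 ran from 0.635 for *Cxcl5* to 2.72 for *Cx3cl1*, around a median of 1.46 against 1.05 for the coding genes tested. No m6A level was measured in these libraries.

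With shMettl14, 4 of the 10 genes were higher and 6 lower by the fitted log2 fold change, and none passed a test after adjustment. At an adjusted p under 0.05, the quasi-likelihood test of edgeR called 0 of the 10 and 0.0% of the 18916 genes tested. *Mettl14* itself, at a log2 fold change of −2.08, was not called either, so a gene that was not called is not shown to be unchanged. At an unadjusted p under 0.05 edgeR called 0 of the 10, beside 1.67% of all genes tested. DESeq2's Wald test gave 0 of the 10 at an adjusted p under 0.05, beside 5 of 29127 genes (0.0172%). At an unadjusted p under 0.05 it gave 1 of the 10, *Ccl7*, beside 1.52% of those genes. The libraries of the groups did not overlap for *Ccl5*, which was higher with shMettl14, and for *Ccl7*, which was lower, against 14.7% of all tested genes that were higher without overlap and 13.3% that were lower without overlap. Both letters were higher for *Ccl5*, *Cxcl12* and *Csf1*, against 30.0% of tested genes, and both lower for *Ccl7*, *Cxcl1*, *Cxcl5*, *Cxcl16* and *Cx3cl1*, against 27.6%. For *Ccl2* and *Cxcl10* the differences in A and B had opposite signs. The median log2 fold change of the 10 was −0.15, and that of all tested genes was 0.0094.

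**Figure D2:**
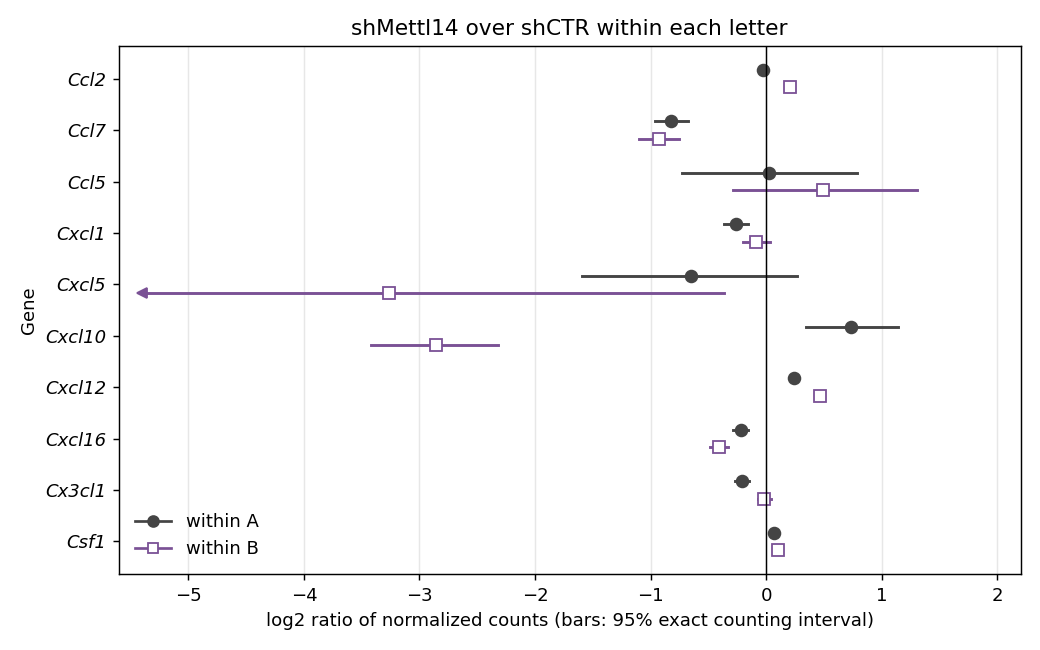
Log2 ratio of shMettl14 over shCTR within letter A (filled circles) and letter B (open squares) for each gene, from normalized counts, with 95% exact intervals that cover counting error only; the arrow marks an interval that runs past the axis. Both ratios of *Ccl7* lie near −1, those of *Cxcl12* are both above 0, and those of *Cxcl10* are far apart on either side of 0.

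*Ccl7* (ENSMUSG00000035373, chromosome 11 of GRCm38 from 82045712 to 82047525, plus strand) encodes a monocyte attractant that shares CCR2 with CCL2. It had 1067 and 685 counts in shCTR A and B and 631 and 434 counts in shMettl14 A and B, which is 9.39 and 6.34 against 5.31 and 3.34 CPM. Both shMettl14 libraries were thus below both shCTR libraries. Normalized *Ccl7* was 7.87 ± 2.16 CPM with shCTR and 4.33 ± 1.40 CPM with shMettl14 (SD, n = 2 libraries each), which is 55.0% of the shCTR level. The log2 ratio was −0.82 within A (95% exact interval −0.97 to −0.68) and −0.93 within B (−1.10 to −0.75), where intervals here and below cover counting error only. Its log2 fold change of −0.86 (standard error 0.40) had an unadjusted p of 0.081 and an adjusted p of 1.0 from edgeR, and it was −0.55 without shCTR A and −1.24 without shMettl14 A. Of the 10 genes it had the largest log2 fold change relative to its standard error.

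*Ccl2* (ENSMUSG00000035385, chromosome 11 from 82035571 to 82037453, plus strand) is the neighbour of *Ccl7*, which begins 8258 bases further on. It had 18078 and 8903 counts in shCTR A and B and 18572 and 12341 counts in shMettl14 A and B. In CPM these were 159 and 82.4 with shCTR and 156 and 94.9 with shMettl14, so the libraries of letter A were high and those of letter B low under either hairpin. The log2 ratio was −0.025 within A (95% exact interval −0.055 to 0.0044) and 0.20 within B (0.16 to 0.24). Its log2 fold change of 0.057 (standard error 0.42) was far smaller than the spread between replicates (120.8 ± 54.3 against 125.6 ± 43.5 CPM, SD, n = 2 libraries each). Without shCTR B the log2 fold change was −0.34, and without shMettl14 A it was −0.35.

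Setting *Ccl7* against *Ccl2* in the same library removes library size from the comparison. There were 5.90 and 7.69 *Ccl7* counts per 100 *Ccl2* counts in shCTR A and B, and 3.40 and 3.52 in shMettl14 A and B. Both control ratios were above both knockdown ratios, and the knockdown ratios were close to each other. The ratio differed by −0.80 on the log2 scale within A and by −1.13 within B. Counts of *Cxcl12* per 100 *Csf1* counts were 200.2 and 171 with shCTR and 226 and 220.02 with shMettl14, again without overlap. Counts of *Cxcl16* per 100 *Cx3cl1* counts, the pair of membrane-bound chemokines, were 83.4 and 61.5 with shCTR and 82.7 and 46.9 with shMettl14 and overlapped. These 3 ratios were chosen after the values had been seen. A two-sided exact permutation test gave p = 0.333 for the first and second, the smallest p that 2 libraries against 2 can give, and 0.667 for the third (0.50, 0.50 and 0.667 with Benjamini-Hochberg adjustment over the 3).

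**Figure D3:**
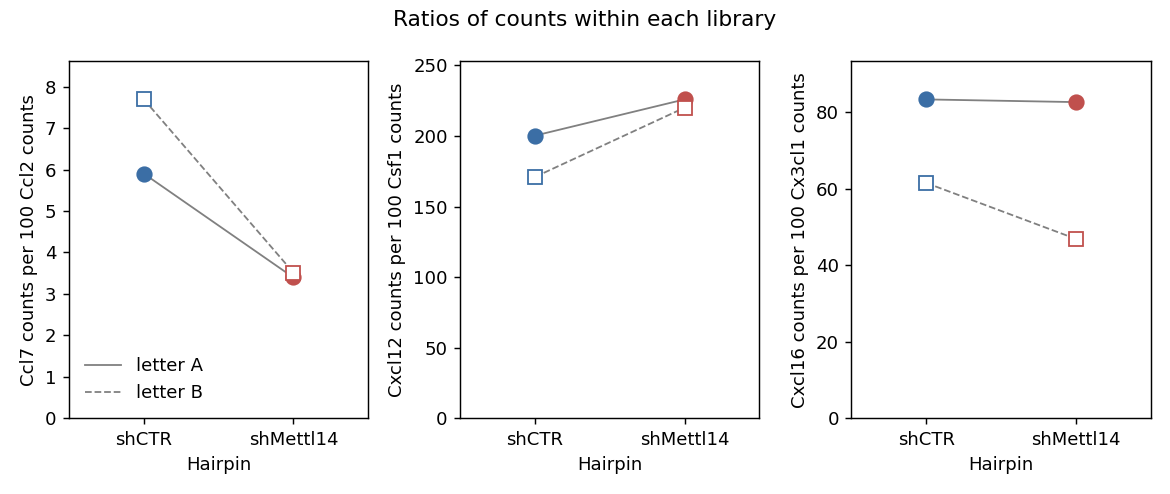
Counts of one gene per 100 counts of another within each library, for *Ccl7* over *Ccl2*, *Cxcl12* over *Csf1* and *Cxcl16* over *Cx3cl1*, with lines joining libraries of the same letter. *Ccl7* per 100 *Ccl2* lies at 5.90 and 7.69 with shCTR and at 3.40 and 3.52 with shMettl14.

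*Ccl5* (ENSMUSG00000035042, chromosome 11 from 83525778 to 83530518, minus strand), whose product attracts T cells and monocytes, was barely detected. It had 31 and 23 counts in shCTR A and B and 33 and 39 counts in shMettl14 A and B, or 0.273 and 0.213 against 0.278 and 0.300 CPM. Both shMettl14 libraries were higher, yet the intervals of the log2 ratio included 0 within A (0.026, −0.73 to 0.78) and within B (0.49, −0.29 to 1.30). At this depth no difference was detectable, and the log2 fold change of 0.25 was smaller than its standard error of 0.58. It was 0.078 without shCTR B and 0.44 without shCTR A.

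*Cxcl1* and *Cxcl5* encode attractants of neutrophils that act on CXCR2, and lie 129616 bases apart on chromosome 5. *Cxcl1* (ENSMUSG00000029380, from 90891241 to 90893115, plus strand) had 1574 and 1140 counts in shCTR A and B and 1373 and 1294 in shMettl14 A and B. These are 13.9 and 10.6 against 11.6 and 9.95 CPM, and the groups overlapped. The log2 ratio was −0.26 within A (−0.37 to −0.16) and −0.085 within B (−0.20 to 0.031), with a log2 fold change of −0.18 (standard error 0.27). Without shCTR A the log2 fold change of *Cxcl1* was 0.032. *Cxcl5* (ENSMUSG00000029371, from 90759360 to 90761624, plus strand) had 27 and 8 counts in shCTR A and B and 18 and 1 in shMettl14 A and B. The ratio of letter B rests on those 8 counts and 1 count, and its log2 value of −3.27 had an exact interval of −8.74 to −0.37. Within A the log2 ratio of *Cxcl5* was −0.65 (−1.60 to 0.26), and without shCTR A the fitted log2 fold change was 0.096 in place of −0.97 (standard error 1.42).

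*Cxcl10* (ENSMUSG00000034855, chromosome 5 from 92346638 to 92348889, minus strand), an interferon-induced attractant of activated T cells through CXCR3, had its high and low libraries in both groups. It had 85 and 204 counts in shCTR A and B and 148 and 34 counts in shMettl14 A and B, or 0.748 and 1.89 against 1.25 and 0.261 CPM. Both the highest and the lowest library carried the letter B. The log2 ratio was 0.74 within A (0.34 to 1.14) and −2.85 within B (−3.42 to −2.32), so that the letters differed in direction beyond counting error. Its log2 fold change of −0.81 (standard error 0.89) was smaller than its standard error, and it was 0.0047 without shCTR B and −2.33 without shMettl14 A. Of its exon bases, 5.91% overlap *Art3* on the other strand.

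*Cxcl12* (ENSMUSG00000061353, chromosome 6 from 117168535 to 117181367, plus strand) had 337339 and 218152 counts in shCTR A and B and 416421 and 362179 in shMettl14 A and B. In CPM these were 2970 and 2020 with shCTR and 3507 and 2785 with shMettl14, so that shCTR B was the lowest library and shMettl14 A the highest. Normalized *Cxcl12* was 2495 ± 672 CPM with shCTR and 3146 ± 511 CPM with shMettl14 (SD, n = 2 libraries each). The log2 ratio was 0.24 within A (0.23 to 0.25) and 0.46 within B (0.46 to 0.47), intervals that are narrow because of the depth of this gene. The log2 fold change of 0.33 had a standard error of 0.27 (edgeR, unadjusted p = 0.27), and the libraries of the groups overlapped. This log2 fold change ranged from 0.079 without shCTR B to 0.64 without shCTR A.

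*Cxcl16* and *Cx3cl1* encode the chemokines that are made as membrane proteins and shed by ADAM10 and ADAM17. *Cxcl16* (ENSMUSG00000018920, chromosome 11 from 70453983 to 70459984, minus strand), the ligand of CXCR6 and a scavenger of oxidized lipoprotein, had 3962 and 2861 counts in shCTR A and B and 3550 and 2599 in shMettl14 A and B. These are 34.9 and 26.5 against 29.9 and 20.0 CPM, lower with shMettl14 in each letter but overlapping between the groups. The log2 ratio was −0.22 within A (−0.29 to −0.16) and −0.41 within B (−0.48 to −0.33), and the fit gave −0.30 (standard error 0.30), or −0.034 without shMettl14 B. Of the exon bases of *Cxcl16*, 18.3% overlap *Zmynd15* on the other strand, and 0.0% overlap a gene on the same strand. Of the 50-base words of its transcript, 20.0% also occur in a transcript of *Zmynd15* when the reverse complement is counted as a match. Whether the counting used strand is not given in the sources used here.

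*Cx3cl1* (ENSMUSG00000031778, chromosome 8 from 94772009 to 94782427, plus strand), the adhesive ligand of CX3CR1 that endothelial cells and VSMCs display, was the steadiest of the 10. It had 4753 and 4651 counts in shCTR A and B and 4295 and 5541 in shMettl14 A and B. In CPM these were 41.8 and 43.1 with shCTR and 36.2 and 42.6 with shMettl14, with the highest library 1.19 times the lowest. Its fitted log2 difference was −0.11 (standard error 0.20), and without shMettl14 A it was 0.0067. *Csf1* (ENSMUSG00000014599, chromosome 3 from 107741048 to 107760469, minus strand) had 168460 and 127597 counts in shCTR A and B and 184351 and 164612 in shMettl14 A and B. In CPM these were 1483 and 1181 with shCTR and 1552 and 1266 with shMettl14. The log2 ratio of *Csf1* was 0.066 within A (0.056 to 0.075) and 0.099 within B (0.089 to 0.11), and the fitted value was 0.081 (standard error 0.22). It was −0.078 without shCTR B and −0.073 without shMettl14 A.

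Libraries of the same hairpin also differed between letters. Letter B was lower than letter A under both hairpins for *Ccl2*, *Ccl7*, *Cxcl1*, *Cxcl5*, *Cxcl12*, *Cxcl16* and *Csf1*. The share of all tested genes with this pattern was not taken, so it is not shown to be particular to these genes. The median size of the mean log2 difference between letters was 0.44 for the 10 genes and 0.39 for all tested genes. The mean difference between letters exceeded that between hairpins for 7 of the 10 genes, the exceptions being *Ccl7*, *Ccl5* and *Cxcl10*, a share close to the 64.2% of all tested genes. These means keep the sign of each ratio, so opposite ratios cancel. For *Cxcl10* the letter ratios of 1.32 and −2.18 (log2 CPM) gave a mean of −0.43, and hairpin ratios of 0.72 and −2.78 a mean of −1.03. For *Ccl2* the log2 ratio of B over A was −0.95 with shCTR (95% exact interval −0.99 to −0.91) and −0.72 with shMettl14 (−0.75 to −0.69). *Cx3cl1* was not lower in B under either hairpin, with log2 ratios of 0.041 (−0.017 to 0.10) and 0.24 (0.18 to 0.29). *Cxcl10* turned from 1.34 with shCTR (0.96 to 1.72) to −2.25 with shMettl14 (−2.84 to −1.71). The summed endothelial markers moved the other way between the letters of each hairpin, from 1919 CPM in shCTR A to 4067 CPM in shCTR B and from 1811 CPM in shMettl14 A to 2522 CPM in shMettl14 B. *Emcn*, the most abundant of them on average, went from 649 to 2099 CPM with shCTR and from 484 to 1077 CPM with shMettl14. *Tie1* was lower in B, at 171 and 136 CPM in shCTR A and B and 158 and 134 CPM in shMettl14 A and B. The remaining endothelial markers were higher in B under both hairpins. The part of endothelial cells in the letter differences was not tested.

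**Figure D4:**
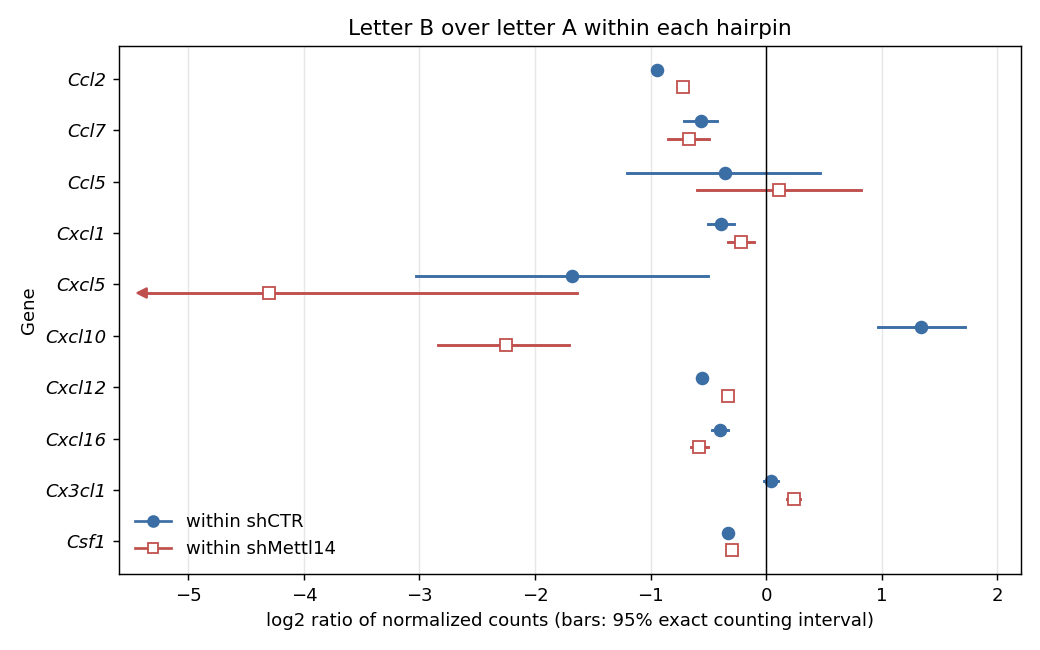
Log2 ratio of letter B over letter A for each gene within shCTR (filled circles) and within shMettl14 (open squares), from normalized counts, with 95% exact intervals that cover counting error only; the arrow marks an interval that runs past the axis. Most genes lie left of 0 under both hairpins, *Cx3cl1* does not, and *Cxcl10* lies on opposite sides.

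The related genes came from 7 lists with 108 genes, of which 77 were tested, and 1 of them, *Ccl17*, had an unadjusted p under 0.05. None had an adjusted p under 0.05 by edgeR or DESeq2. Among 30 other ligands (chemokines and *Il34*, the second ligand of the CSF1 receptor), 12 were tested, and 7 had 0 counts in every library. *Ccl17*, an attractant of T cells through CCR4, had 1.08 and 0.685 CPM in shCTR A and B and 0.345 and 0.369 CPM in shMettl14 A and B, with a fitted log2 difference of −1.31 ± 0.49 (SE; edgeR, unadjusted p = 0.044, adjusted p = 1.0). *Ccl25* was the most abundant of them, with between 523 and 907 counts. *Ccl9* had the lowest log2 fold change among those above 1 CPM, at −0.71 (standard error 0.72), and *Ccl6* the highest, at 0.26 (standard error 0.63).

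Of 15 receptors 7 were tested, and 0 had groups that did not overlap, beside 14.7% of all tested genes higher and 13.3% lower without overlap. *Ackr3*, the scavenging receptor of CXCL12, was the most abundant, with 88.0 and 5.81 CPM in shCTR A and B and 77.9 and 5.44 CPM in shMettl14 A and B, so that letter A was high and letter B low under both hairpins. *Cxcr4*, the signalling receptor of CXCL12, stayed between 0.331 and 0.731 CPM. *Csf1r*, the receptor of CSF1, had between 1.49 and 4.11 CPM and a log2 fold change of −0.39 (standard error 0.57), and *Ackr4* had the highest, at 0.43 (standard error 0.55). *Ccr2*, the receptor of CCL2 and CCL7, had 0 counts in the libraries other than shCTR A. Of 9 genes of shedding, cleavage and surface binding, *Adam10* and *Adam17* had log2 fold changes of 0.022 (standard error 0.21) and 0.15 (standard error 0.20). *Sdc4*, a heparan sulfate proteoglycan, had 243 and 151 CPM with shCTR and 140 and 118 CPM with shMettl14 and was the only one of the 9 without overlap of the groups, beside those same shares of all genes (log2 fold change −0.62 ± 0.30 SE, unadjusted p = 0.092 from edgeR). *Sdc3* was the most abundant (−0.00041, standard error 0.31) and *Sdc1* had the highest log2 fold change (0.22, standard error 0.26).

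Upstream, 4 of 9 inducing cytokines were tested, and *Ifng*, *Ifnb1* and *Il17a* had 0 counts in every library. Without overlap of the groups, *Il1a* was higher (3.33, standard error 1.39) and *Tnfsf11* lower (−0.64, standard error 0.43). *Il1a* had 3 and 0 counts in shCTR A and B and 16 and 20 in shMettl14 A and B. *Il6* was the most abundant, with 41.2 and 8.84 CPM in shCTR A and B and 42.3 and 9.62 CPM in shMettl14 A and B, again high in A and low in B. All 16 cytokine and pattern receptors and adaptors were tested, with a median log2 fold change of 0.024. The extremes were *Tlr4* (0.28, standard error 0.27) and *Ifnar2* (−0.38, standard error 0.26), the latter lower without overlap of the groups. *Tnfrsf1a* was the most abundant (−0.0028, standard error 0.32). Of 20 genes of NF-kB and interferon regulation, 2 were higher and 5 lower without overlap of the groups, and the median was −0.18. Of all tested genes, 14.7% were higher and 13.3% lower without overlap. The lower ones were *Nfkbib*, *Nfkbie*, *Irf7*, *Irf9* and *Stat2*, and the higher ones *Ikbkg* and *Chuk*. *Irf7*, which drives interferon genes, had 18.7 and 16.7 CPM with shCTR and 13.9 and 8.02 CPM with shMettl14 (log2 fold change −0.69 ± 0.34 SE, unadjusted p = 0.096 from edgeR). *Ikbkg*, the regulatory subunit of the IkB kinase, had 148 and 147 CPM with shCTR and 185 and 168 CPM with shMettl14 (0.26, standard error 0.19). Of 9 proteins that bind cytokine mRNAs at AU-rich or stem-loop elements, *Hnrnpd* had the lowest log2 fold change (−0.50, standard error 0.28), without overlap of the groups. *Tia1* had the highest (0.54, standard error 0.34), and its groups overlapped. *Zfp36l2* was the most abundant (0.18, standard error 0.56), and *Zfp36*, which speeds the decay of ATTTA-bearing mRNAs, had 102 and 81.7 CPM with shCTR and 69.9 and 82.3 CPM with shMettl14.

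**Figure D5:**
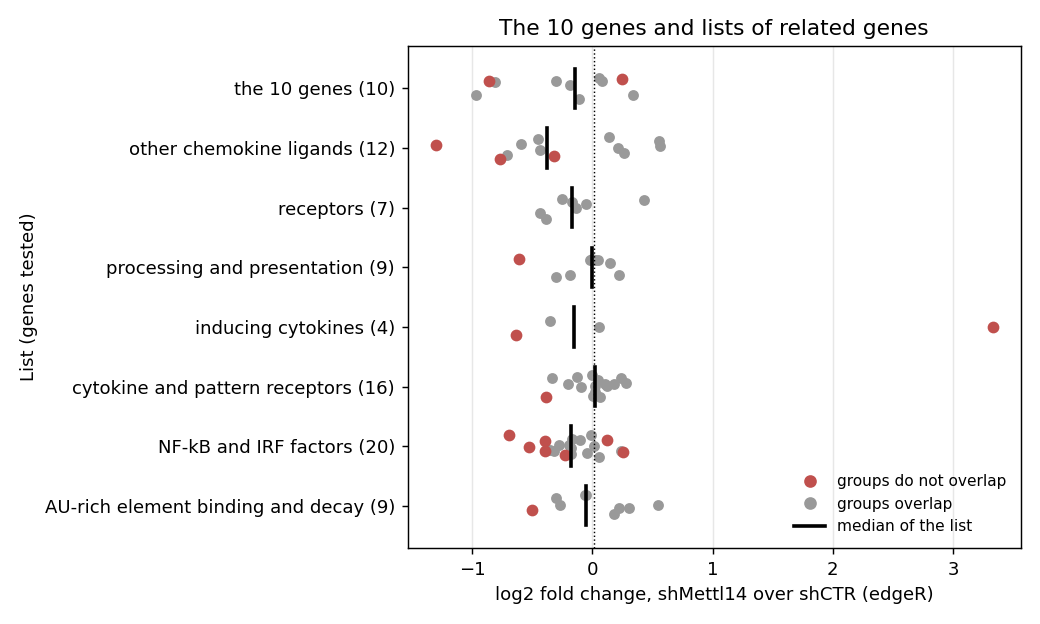
Log2 fold change of each tested gene (shMettl14 over shCTR, edgeR) for the 10 genes and the 7 lists, with the number tested in brackets, black bars for list medians and a dotted line for the median of all tested genes. Red points, whose groups do not overlap, include *Ccl7* and *Ccl5*; the point at far right is *Il1a*, which had 3 and 0 counts with shCTR and 16 and 20 with shMettl14.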

How the data were processed

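The values used are counts of reads per gene that the authors deposited without normalization, in 1 table. Per the study's methods and the labels, poly-A RNA was prepared with a TruSeq Stranded kit, sequenced on both ends, mapped to mm10 (GRCm38, Ensembl release 86) with STAR and counted with featureCounts. Their versions and the strand setting are not given in the sources used here. Groups came from the sample titles, and p-values measure the spread between 2 libraries per group, which may be technical.

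The 10 genes, the lists and the alternatives were chosen with earlier results of these data known. edgeR 4.0.16 in R 4.3.3 fitted TMM-normalized counts after filterByExpr (18916 genes) by a robust quasi-likelihood test without a block, with Benjamini-Hochberg adjustment over all genes. DESeq2 1.42.0, named by the study, was an alternative. The standard error of a log2 fold change was its size divided by the square root of F. Ratios within a letter have exact binomial intervals (95%). Counts of genes higher or lower in both letters, and mean letter differences, used log2 CPM with a prior count of 2. Exon lengths and places came from GENCODE M21 on GRCm38, with all exons of a gene merged over its transcripts. Transcript sequences also came from GENCODE M21, 1 transcript per coding gene (best APPRIS class, then the longest). For *Cxcl12* the merged exons span 8176 bases and the transcript used has 3132. Promoters came from RefSeq. Of the related genes, those named had an unadjusted p under 0.05, were the most abundant of their list, or had its highest or lowest log2 fold change at a mean of at least 1 CPM. *Adam10*, *Adam17*, *Cxcr4*, *Ccr2*, *Zfp36*, *Il1a*, *Cd68*, *Cd14* and the genes named for non-overlap or a count of 0 were added after their values were seen. The fits were run on simulated counts with large changes in well-covered genes. Their dispersion (random variation between libraries) was set below the 0.178 of the main fit and the 0.0418 with the replicate block. That check does not show what size of difference the tests detect in these data. Python 3.11.15 with scipy 1.17.1 did the rest.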

Additional observations from a re-analysis of the deposited data

How the results depend on the processing

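At an adjusted p under 0.05, edgeR called 0 genes as reported, 0 with RLE or upper-quartile scaling, and 0 without the filter or with 10 counts required in every library. DESeq2 called 5. With each library left out in turn edgeR called 0 to 1, where the lone library of a group is assumed to vary like the other group. Of the 10 genes 0 were called under each of these settings and with the replicate block, and so were 0 of the related genes. *Mettl14* was at −2.08 in the main test (adjusted p = 1.0), −2.09 with DESeq2 (adjusted p = 3.0e-07), and −2.08 with the replicate block (adjusted p = 0.0039). With each library left out, *Ccl2* ranged from −0.35 to 0.61, *Csf1* from −0.078 to 0.26, *Cx3cl1* from −0.23 to 0.0067, *Cxcl1* from −0.37 to 0.032, *Cxcl10* from −2.33 to 0.0047 and *Cxcl5* from −4.17 to 0.096. These 6 genes thus changed direction in at least 1 such fit, 8 of 99 fits of a gene in all, and 0 of the 8 came from another kind of alternative. *Ccl5*, *Ccl7*, *Cxcl12* and *Cxcl16* kept their direction in every fit, *Ccl7* with a range of −1.24 to −0.55.

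A replicate block that pairs libraries by letter called 9 genes in edgeR, none of them among the 10 or the related genes. At an unadjusted p under 0.05 it had 1941 genes, 10.3% of those tested, against 315 in the main test. *Ccl7* was then at −0.87 ± 0.21 SE on the log2 scale (unadjusted p = 0.0019, adjusted p = 0.23, against 0.23 to 1.0 over all alternatives), and the related genes under that level numbered 11 in place of 1, 3 without shCTR A or B, and 0 without shMettl14 A or B. The share of all genes under that level was 6.9% without shCTR A, 4.08% without shCTR B, 0.564% without shMettl14 A and 0.386% without shMettl14 B. Across genes, the deviations of same-letter libraries from their group means correlated at 0.578. With 2 pairs that are not stated to share a culture the block stays an alternative. *Ccl7* was also under that level with DESeq2 (0.043) and without shCTR B (0.042). *Cxcl5*, with 1 count in shMettl14 B, was not tested at 10 counts in every library.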

Other observations

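A few genes around these signals differed between the letters by far more than between the hairpins, and were named after their values were seen. *Cebpb*, a transcription factor that acts with NF-kB on cytokine genes, had 112 and 22.7 CPM in shCTR A and B and 102 and 16.8 CPM in shMettl14 A and B. *Ccl28*, a mucosal chemokine, had 7.96 and 0.472 CPM in shCTR A and B and 9.26 and 0.515 CPM in shMettl14 A and B. *Tnfaip3*, an inhibitor of NF-kB signalling, went the other way, with 43.8 and 117 CPM in shCTR A and B and 54.0 and 136 CPM in shMettl14 A and B. With 1 library for each letter and hairpin these differences were not tested.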
